A study of Mus musculus with 4 samples.

Results

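The genes described here carry a cell from growth-factor or cytokine signals into the cell cycle. They are the D cyclins Ccnd1, Ccnd2 and Ccnd3, their kinase partners Cdk4 and Cdk6, the inhibitor genes Cdkn1b, Cdkn2a, Cdkn2c and Cdkn2d, and the retinoblastoma gene Rb1. They were chosen by name, with earlier results of these data known, as 10 genes of 41388 in the count tables. All 10 had enough counts to be tested. RNA-seq was done on Mnk3 cells, a mouse line used as a model of group 3 innate lymphoid cells (ILC3), which reside in mucosal tissue and release IL-22 and IL-17. The control group held 2 libraries of Mnk3 cells without cytokine. The stimulated group held 2 libraries of Mnk3 cells given IL-1b together with IL-23, 10 ng/ml of each cytokine, and both groups were taken at about 16 h. No allele or transgene is named for either group, all libraries come from this 1 line, and the sources used here do not say whether libraries of a group were separate cultures. P-values therefore set the difference between the groups against the spread among libraries of a group, a spread that may be technical. The test estimates that spread with information shared across genes. A gene whose own libraries lie close together can therefore still fail to pass.

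D cyclins bind and activate CDK4 and CDK6, and the paired kinases phosphorylate the retinoblastoma protein, which then releases E2F transcription factors that drive genes of DNA synthesis. The INK4 proteins from genes described here (p16INK4a from Cdkn2a, p18INK4c from Cdkn2c and p19INK4d from Cdkn2d) bind CDK4 and CDK6 and keep D cyclins off them. A further INK4 gene, Cdkn2b, is outside this set. The product of Cdkn1b, p27KIP1, blocks mainly CDK2 with cyclin E or cyclin A and also sits in complexes of D cyclins with CDK4 or CDK6. In lymphocytes, cytokine receptors are known to raise D cyclins and lower p27KIP1 on the way into division.

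After stimulation, Ccnd2 transcripts were 9-fold higher, Cdk6 2.35-fold, Cdkn2a 2.05-fold and Cdkn2d 1.89-fold, while Cdkn1b was 2.13-fold lower and Cdkn2c 1.47-fold lower. Among the 10 genes, the INK4 genes that rose and the INK4 gene that fell encode inhibitors of the same kinases. Ccnd1, Ccnd3, Cdk4 and Rb1 did not pass the test. Of the 10 genes, 4 rose, 2 fell and 4 were not called. Over all 13838 genes tested, 35.8% were called, 17.5% higher and 18.3% lower. The median log2 fold change of the 10 genes was 0.37, against -0.02 over all genes tested. As the 10 were chosen with earlier results of these data known, these shares and medians only describe them. In each of the 10 genes the stimulated libraries did not overlap the controls, which was also so for 70.7% of all genes tested.

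Summed counts ranged from 23047723 to 29078765 per library. Values below are given for control 1, control 2, stimulated 1 and stimulated 2, in that order, where the number 1 marks the libraries whose titles carry a replicate number. The ILC3 markers Kit, Thy1 and Il23r were present in both groups. Of 10 ILC3 markers 2 rose and 5 fell (70% called, against 35.8% of all genes tested). Kit and Il23r were among those that fell, and Thy1 was not called. Summed T cell markers went from 42.1 to 48.5 CPM (counts scaled to a common library size) in controls to 27 to 32.1 in stimulated libraries, and Cd8b1 had no count. Stromal markers went from 7.47 to 8.57 CPM to 1.43 to 2.19, with Pdpn at 0. In that list Col3a1 fell from 7.59 ± 1.2 CPM (SD, n = 2) to 1.15 ± 0.846 (adjusted p = 0.0084). Myeloid markers were at 4.99 to 6.77 CPM and 5.9 to 12.1, with Lyz2, Cd14 and S100a8 at 0. In that list Adgre1 rose, with counts of 2, 0, 44 and 187 (adjusted p = 0.0161). B cell markers were at 3.19 to 3.79 CPM and 1.78 to 1.97, epithelial markers at 1.02 to 1.39 and 0.35 to 0.435, and erythroid markers at 0.717 to 0.896 and 0.475 to 0.963, with Hbb-bs and Hbb-bt at 0. The part of these in the changes below was not tested. In bulk RNA, fewer cells expressing a gene and less of its RNA per cell cannot be told apart.

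**Figure D1:**
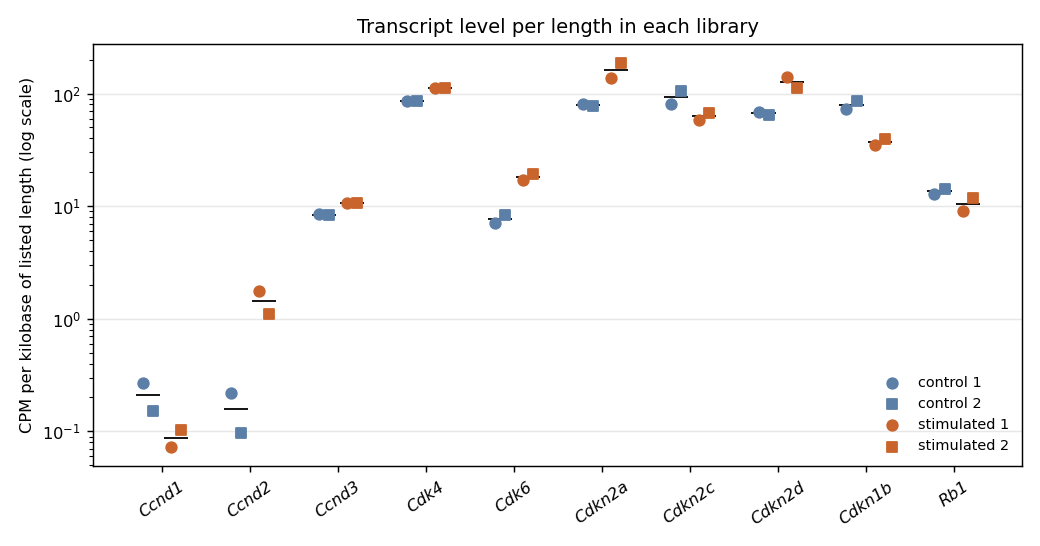
Level of each gene in each library, in CPM per kb of listed length on a log axis, with the libraries as points (control blue, stimulated orange) and the mean of each group as a short line. Ccnd1 and Ccnd2 lie far below the other genes in controls, and the separation of the groups is widest for Ccnd2, whose stimulated libraries are at 1.76 and 1.11.

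Levels of different genes were compared per length, as CPM per kb of the length listed in the count tables. In controls the order was Cdkn2c at 92.7 ± 16.8 (SD, n = 2), Cdk4 at 85.8 ± 0.45, Cdkn1b at 79.3 ± 9.04, Cdkn2a at 78.6 ± 2.25 and Cdkn2d at 66.8 ± 3.39. Rb1 followed at 13.6 ± 0.927, then Ccnd3 at 8.41 ± 0.194, Cdk6 at 7.76 ± 0.924, Ccnd1 at 0.21 ± 0.0826 and Ccnd2 at 0.159 ± 0.0886. The libraries overlapped between neighbours in this order for Cdkn2c and Cdk4, Cdk4 and Cdkn1b, Cdkn1b and Cdkn2a, Ccnd3 and Cdk6, and Ccnd1 and Ccnd2. In stimulated cells the order was Cdkn2a at 161 ± 34.2, Cdkn2d at 126 ± 19.6, Cdk4 at 112 ± 0.797, Cdkn2c at 63.2 ± 6.29 and Cdkn1b at 37.3 ± 3.03. Cdk6 followed at 18.3 ± 1.42, then Ccnd3 at 10.7 ± 0.0791, Rb1 at 10.5 ± 1.98, Ccnd2 at 1.44 ± 0.455 and Ccnd1 at 0.0875 ± 0.0215. There the libraries overlapped for Cdkn2a and Cdkn2d and for Ccnd3 and Rb1, and Cdkn2d and Cdk4 were both at 113 in stimulated 2. These levels depend on the listed length. The listed 3735 bases of Cdk6 are far fewer than the 13989 exonic bases in the GENCODE M21 annotation, and the lengths also differ for Ccnd1 (3835 and 4709), Ccnd2 (5701 and 9409) and Cdkn2d (1271 and 1574). The counts were made over the listed exons, so the annotated lengths include bases that were not counted and understate the levels of these genes. With the annotated lengths, the order in controls was the same. In stimulated cells Cdk6, at 4.89 ± 0.379 CPM per kb, then came after Ccnd3 and Rb1, and Cdkn2d, at 102 ± 15.8, after Cdk4.

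Ccnd2 encodes cyclin D2, the D cyclin that B and T lymphocytes raise in response to growth signals. The gene lies at chr6:127125779-127151048 on the minus strand. Its counts were 38, 16, 253 and 145, which is 1.26, 0.547, 10 and 6.35 CPM. Both stimulated libraries lay well above both controls, and within each group library 1 was the higher. The mean went from 0.904 ± 0.505 CPM (SD, n = 2) to 8.18 ± 2.59 CPM. The log2 fold change was 3.17 ± 0.45 (SE; edgeR quasi-likelihood test, adjusted p = 0.00298). The size rests on the few control counts. It was 3.89 on the log2 scale without control 1 and 2.69 without control 2, and the call held in both.

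Ccnd3 encodes cyclin D3, the D cyclin on which expansion of developing lymphocytes is known to depend. This gene lies at chr17:47505051-47599691 on the plus strand. Its counts were 2261, 2126, 2381 and 2131, which is 75, 72.6, 94.3 and 93.3 CPM. The groups did not overlap, and the libraries of each group lay close together. The change was 0.35 ± 0.13 on the log2 scale and did not pass the test (adjusted p = 0.0763). On the opposite strand, Bysl, a ribosome biogenesis gene, shares 361 of the 8775 exonic bases counted for Ccnd3. Bysl rose by 1.73 ± 0.14 on the log2 scale (adjusted p = 0.000412). No source used here states whether counting took account of strand, so reads of overlapping exons cannot be told apart. A processed pseudogene, Ccnd3-ps, holds 1.52% of the 50-base stretches of Ccnd3 transcripts and had 2 to 3 counts per library.

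Ccnd1 encodes cyclin D1, the D cyclin that dominates in many epithelial and fibroblast cells. It lies at chr7:144929931-144939869 on the minus strand and was near the limit of detection, with counts of 31, 17, 7 and 9. These are 1.03, 0.581, 0.277 and 0.394 CPM, so both stimulated libraries lay below both controls. The log2 fold change was -1.26 ± 0.51 and did not pass the test (adjusted p = 0.0951). Of its 3835 exonic bases, 818 overlap LTO1 on the opposite strand, which held 208 to 403 counts per library. The share of reads in this overlap was not tested.

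Summed per length, the 3 D cyclins were at 9.04, 8.52, 12.6 and 11.8 CPM per kb, 1.39-fold higher in stimulated cells. Ccnd3 made up 94.6%, 97.1%, 85.4% and 89.7% of that sum. It was the main D cyclin transcript in all 4 libraries. Ccnd2 went from 1.79% ± 0.935 (SD, n = 2) of the sum to 11.7% ± 3.24, and Ccnd1 from 2.37% ± 0.842 to 0.721% ± 0.207. The ratio of Ccnd3 to Ccnd2 per length was 38.7, 86.3, 6.11 and 9.55. The shares are descriptions without a test, and they move with the length used, as the values for other lengths under the additional observations show.

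**Figure D2:**
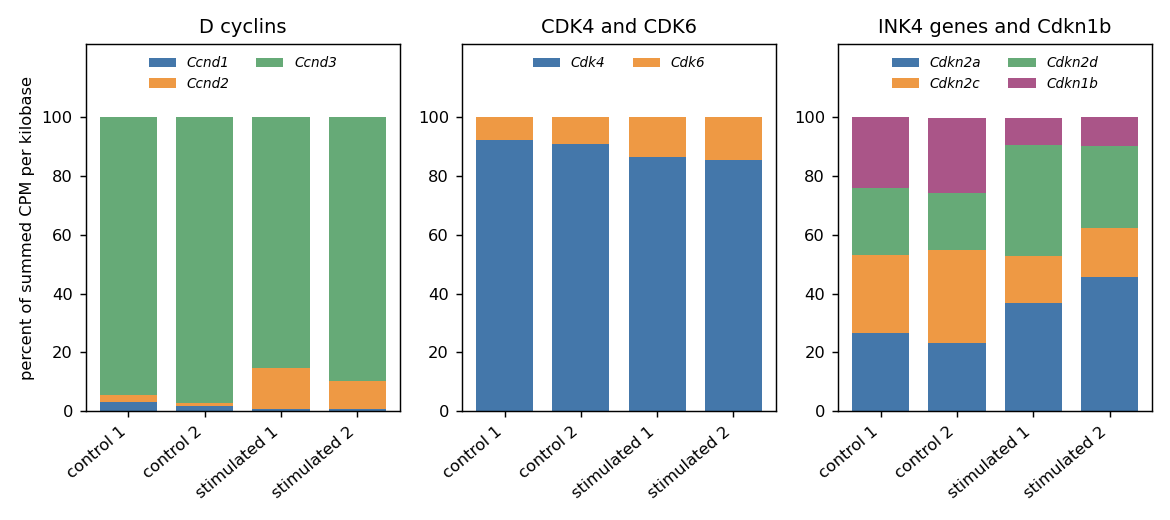
Share of each gene in the summed CPM per kb of its family in each library, in percent, for the D cyclins, for Cdk4 and Cdk6, and for the 4 inhibitor genes. Stimulated libraries show more Ccnd2, more Cdk6 and more Cdkn2a, and the share of Cdkn1b is 9.45% and 9.72% against 24.1% and 25.8% in controls.

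Cdk4 and Cdk6 encode the catalytic partners of D cyclins. Their promoter windows are shown because the kinases differed in the size of their change. Each window holds the 250 bases before an annotated start in the RefSeq table of GRCm38.p6, read 5′ to 3′ on the gene's strand. Capitals mark matches to the motifs searched on both strands, here CACGTG (E-box) and GGGCGG (GC box, CCGCCC on the other strand).
Cdk4, chr10:127063285-127063534, plus strand: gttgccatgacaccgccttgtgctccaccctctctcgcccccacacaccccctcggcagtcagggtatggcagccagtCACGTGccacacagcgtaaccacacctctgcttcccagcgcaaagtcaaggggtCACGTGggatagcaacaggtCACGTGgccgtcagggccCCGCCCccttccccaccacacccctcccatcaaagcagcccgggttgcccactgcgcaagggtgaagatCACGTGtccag
Cdk6, chr5:3343643-3343892, plus strand: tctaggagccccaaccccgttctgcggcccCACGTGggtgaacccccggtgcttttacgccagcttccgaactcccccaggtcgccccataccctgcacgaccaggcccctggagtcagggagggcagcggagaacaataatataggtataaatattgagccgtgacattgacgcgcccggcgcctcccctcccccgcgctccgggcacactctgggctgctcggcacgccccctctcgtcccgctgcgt

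The Cdk4 window holds 4 E-boxes, beginning at positions -172, -118, -98 and -11 from the start, and a GC box at -80. The E-box is the core letters bound by MYC and related factors. Of 32851 windows of this length in the table, 6.02% hold at least 1 E-box, and 7 windows (0.0213%) hold 4 or more. That cutoff equals the count in the Cdk4 window, which is itself among the 7, so the share only describes it. The Cdk6 window holds 1, at -220. A match describes letters and shows no binding.

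Cdk6 is the kinase that prevails in many blood cells. It lies at chr5:3343893-3523218 on the plus strand. Its counts were 800, 920, 1627 and 1643, which is 26.5, 31.4, 64.4 and 71.9 CPM. Both stimulated libraries lay far above both controls, and the libraries of each group were close together. The log2 fold change was 1.23 ± 0.16 (adjusted p = 0.00178), and it ranged from 1.11 to 1.36 when any 1 library was left out.

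Cdk4 lies at chr10:127063534-127067920 on the plus strand. Its counts were 8372, 8193, 9173 and 8380, which is 278, 280, 363 and 367 CPM. The libraries of each group lay within a few CPM of each other, and the groups were apart. On the log2 scale the change was 0.39 ± 0.13 and did not pass the test (adjusted p = 0.0619). With the Wald test of DESeq2 it passed (adjusted p = 0.0184). Tspan31, a tetraspanin gene on the opposite strand, shares 604 of the 3249 exonic bases of Cdk4 and differed by 0.37 ± 0.13 (adjusted p = 0.0737).

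Per length, the ratio of Cdk4 to Cdk6 was 12, 10.2, 6.48 and 5.86, so that Cdk4 was the more abundant kinase transcript in every library on this scale. Cdk6 went from 8.29% ± 0.866 (SD, n = 2) of the summed kinase level to 14% ± 0.851. An alternative per kb of annotated exons was added after seeing the data. It includes bases not counted for Cdk6 and so understates Cdk6. The ratio of Cdk4 to Cdk6 was then 45, 38.3, 24.4 and 21.9. On that scale the share of Cdk6 went from 2.36% ± 0.262 to 4.16% ± 0.282. The summed level of Cdk4 and Cdk6 per length was 92.6, 94.5, 129 and 132 CPM per kb, 1.4-fold higher in stimulated cells. The ratio of Cdk4 to Ccnd3 per length was 10, 10.4, 10.4 and 10.6, nearly the same in all 4 libraries.

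**Figure D3:**
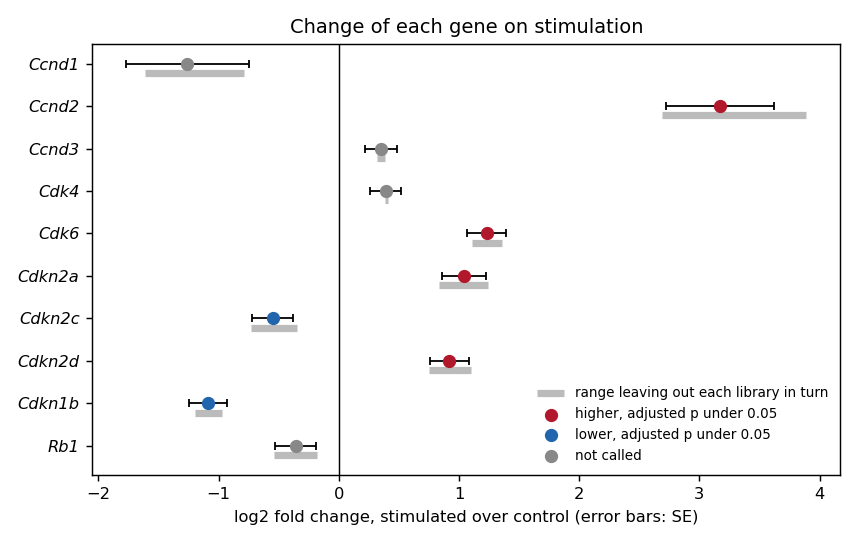
Log2 fold change of each gene, stimulated minus control, as a point with its SE, over a grey bar that spans the values when any 1 library is left out. The bar of each gene stays on its side of 0, and it is widest for Ccnd2 (2.69 to 3.89) and Ccnd1 (-1.61 to -0.79).

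Cdkn1b, the gene of p27KIP1, fell. It lies at chr6:134920401-134925513 on the plus strand. Its promoter window is shown with those of the INK4 genes below because these are the inhibitor genes that changed.
Cdkn1b, chr6:134920151-134920400, plus strand: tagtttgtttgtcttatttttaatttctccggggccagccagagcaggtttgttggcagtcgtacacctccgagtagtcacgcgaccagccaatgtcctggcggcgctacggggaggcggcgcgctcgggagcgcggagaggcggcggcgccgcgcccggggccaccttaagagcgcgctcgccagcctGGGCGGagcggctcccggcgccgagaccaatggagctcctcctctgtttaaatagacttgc

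The Cdkn1b counts were 9999, 11417, 4038 and 4097, which is 332, 390, 160 and 179 CPM. Both stimulated libraries were at about the same level, and far under both controls. The mean went from 361 ± 41.2 CPM (SD, n = 2) to 170 ± 13.8 CPM, with a log2 fold change of -1.09 ± 0.16 (adjusted p = 0.00266). Without any 1 library it ranged from -1.20 to -0.97. Lockd, a long noncoding transcript that lies downstream of Cdkn1b within 10 kb, differed by -0.12 ± 0.17 (adjusted p = 0.625).

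Cdkn2a yields different proteins from separate first exons, the INK4 protein p16INK4a and ARF, which binds MDM2 and so protects p53. The count of a gene cannot tell their transcripts apart. Both starts lie on the minus strand of the gene at chr4:89274471-89294653, and their windows are shown because either could carry the rise.
Cdkn2a, upstream start (ARF), chr4:89294620-89294869, minus strand: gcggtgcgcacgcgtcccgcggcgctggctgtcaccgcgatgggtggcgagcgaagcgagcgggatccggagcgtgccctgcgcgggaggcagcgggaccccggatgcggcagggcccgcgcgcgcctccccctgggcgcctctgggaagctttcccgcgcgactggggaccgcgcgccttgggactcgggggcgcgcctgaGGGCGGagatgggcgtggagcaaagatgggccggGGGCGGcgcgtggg
Cdkn2a, downstream start (p16INK4a), chr4:89282193-89282442, minus strand: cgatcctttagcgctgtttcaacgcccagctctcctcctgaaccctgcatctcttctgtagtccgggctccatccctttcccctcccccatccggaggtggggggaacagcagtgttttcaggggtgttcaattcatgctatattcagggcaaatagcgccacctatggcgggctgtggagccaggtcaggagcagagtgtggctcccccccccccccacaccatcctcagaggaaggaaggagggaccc

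The counts of Cdkn2a were 2831, 2641, 4063 and 4968, which is 93.9, 90.2, 161 and 217 CPM. The controls lay close together, and the stimulated libraries lay apart from each other but above both. The mean went from 92.1 ± 2.63 CPM (SD, n = 2) to 189 ± 40 CPM. Its log2 fold change was 1.04 ± 0.18 (adjusted p = 0.00509).

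Cdkn2d, the gene of p19INK4d, lies at chr9:21288463-21291209 on the minus strand. Its window holds 3 GC boxes, at -118, -106 and -38.
Cdkn2d, chr9:21291210-21291459, minus strand: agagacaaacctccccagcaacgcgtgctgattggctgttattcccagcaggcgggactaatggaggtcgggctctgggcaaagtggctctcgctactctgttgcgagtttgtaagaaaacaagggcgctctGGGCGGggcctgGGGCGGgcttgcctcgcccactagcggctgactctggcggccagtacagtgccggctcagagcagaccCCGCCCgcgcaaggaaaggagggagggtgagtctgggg

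The counts of Cdkn2d were 2651, 2397, 4504 and 3270, which is 88, 81.9, 178 and 143 CPM. Stimulated 1 was the highest library, and both stimulated libraries were above both controls. On the log2 scale Cdkn2d rose by 0.92 ± 0.16 (adjusted p = 0.00517). Kri1, a neighbour within 10 kb, rose by 0.73 ± 0.13 (adjusted p = 0.00634).

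Cdkn2c, the gene of p18INK4c, moved the other way. It lies at chr4:109660876-109667189 on the minus strand, and the window of its upstream start holds 3 GC boxes, at -95, -51 and -40.
Cdkn2c, chr4:109666757-109667006, minus strand: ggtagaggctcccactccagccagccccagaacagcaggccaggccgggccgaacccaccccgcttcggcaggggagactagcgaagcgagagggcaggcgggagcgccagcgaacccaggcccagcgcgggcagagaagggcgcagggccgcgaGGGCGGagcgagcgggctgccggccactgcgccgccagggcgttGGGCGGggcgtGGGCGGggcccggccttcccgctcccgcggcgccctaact

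The counts of Cdkn2c were 6538, 8224, 3989 and 4154, which is 217, 281, 158 and 182 CPM. Control 2 stood above control 1, and both stimulated libraries lay below both. The log2 fold change was -0.55 ± 0.17, just past the threshold of 0.05 (adjusted p = 0.0466). The call ended with limma-voom (adjusted p = 0.0532) and without robust estimation (adjusted p = 0.0555). It also ended without control 2 (-0.35, adjusted p = 0.21), without stimulated 1 (-0.45, adjusted p = 0.193) and without stimulated 2 (-0.63, adjusted p = 0.0734). Faf1, a neighbour of Cdkn2c within 10 kb, rose by 0.51 ± 0.15 (adjusted p = 0.0343).

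Promoter windows were found for 7 of the 10 genes, with 10 start sites. The GC box, the core letters bound by SP1, is common, as 32.7% of all windows hold it, and it was found at 7 of the 10 starts. The letters TGTTTAC, a core bound by FOXO factors, were found at -243 of the upstream Ccnd3 start, and 3.17% of all windows hold them. Also searched were TTTGGCGC and TTTCGCGC (E2F), TGACTCA (AP-1), TTCNNNGAA (STAT), and GGGAATTTC, GGGACTTTC and GGGGATTCC (NF-kB). None of these was found in the 10 windows, which says only that the letters are not there. They are held by 0.417%, 0.256%, 4.46%, 7.02%, 0.234%, 0.289% and 0.213% of all windows, in the same order.

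The makeup of the inhibitor genes differed between the groups. Per length, Cdkn2a made up 34.8% and 31.3% of the summed level of Cdkn2a, Cdkn2c and Cdkn2d in controls and 40.8% and 50.7% in stimulated libraries. Cdkn2c made up 35.1% and 42.5%, then 17.5% and 18.5%. Cdkn2d made up 30.1% and 26.2%, then 41.7% and 30.8%. The ratio of Cdkn2a to Cdkn2c per length was 0.992, 0.736, 2.33 and 2.74, so the order of these INK4 genes differed between the groups. The summed level of these 3 genes was 230, 246, 336 and 366 CPM per kb, 1.47-fold higher in stimulated cells. These shares and sums include any ARF transcripts of Cdkn2a, which the counts cannot separate. They leave out the INK4 gene Cdkn2b, at 7.62, 11.1, 49 and 48.4 CPM per kb. With Cdkn1b added, the sum was 303, 332, 371 and 405 CPM per kb, 1.22-fold higher. Cdk6 rose and Cdkn1b fell, and the ratio of Cdk6 to Cdkn1b per length was 0.0975, 0.0982, 0.491 and 0.489. That of Cdk4 to Cdkn1b was 1.17, 1.01, 3.18 and 2.87, and that of Cdk6 to Cdkn2c was 0.088, 0.0804, 0.293 and 0.284. These ratios are lower for Cdk6 with its annotated length, by the same factor in every library.

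Rb1, which encodes the retinoblastoma protein that these kinases phosphorylate, lies at chr14:73183673-73325822 on the minus strand. Its counts were 2339, 2503, 1388 and 1640, which is 77.6, 85.5, 55 and 71.8 CPM. Both stimulated libraries lay below both controls, though stimulated 2 was not far under control 1. Its log2 fold change was -0.36 ± 0.17 and did not pass the test (adjusted p = 0.139). On the opposite strand, exons of Rcbtb2 and Lpar6 share 488 and 408 of its 6015 exonic bases, and both genes fell. Rcbtb2 fell by 0.78 on the log2 scale (SE 0.14, adjusted p = 0.0065) and Lpar6 by 0.69 (SE 0.15, adjusted p = 0.0126).

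Among the inhibitors and pocket proteins outside the 10 genes, Cdkn2b, the gene of the INK4 protein p15INK4b, changed most. It lies next to Cdkn2a at chr4:89306289-89311032. Its counts were 320, 454, 1725 and 1541, which is 10.6, 15.5, 68.3 and 67.5 CPM. The groups were far apart, and the log2 fold change was 2.38 ± 0.21 (5.2-fold, adjusted p = 0.000575). Rbl2, the gene of the pocket protein p130, fell from 472 ± 10.6 CPM (SD, n = 2) to 257 ± 8.95 CPM, by -0.88 ± 0.14 on the log2 scale (adjusted p = 0.00393). Cdkn1c, the gene of p57KIP2, fell with -1.34 ± 0.31 (adjusted p = 0.0161), and its call ended without stimulated 1 (-1.07, adjusted p = 0.0668). Cdkn1a, the gene of p21CIP1, was at 0.31 ± 0.52 (adjusted p = 0.676). Cdkn3 was at 0.42 ± 0.18 (adjusted p = 0.107), and Rbl1, the gene of p107, at -0.09 ± 0.14 (adjusted p = 0.641). Of these 6 genes 1 rose and 2 fell (50% called, against 35.8% of all genes tested), with a median of 0.11.

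**Figure D4:**
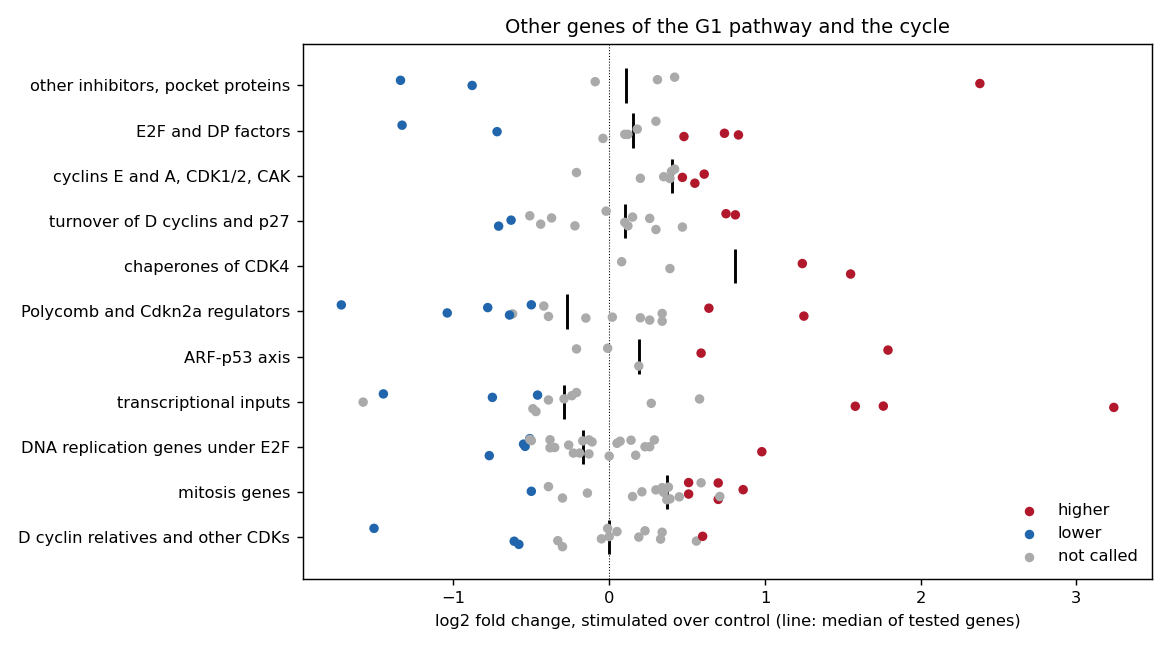
Log2 fold change, stimulated minus control, of each tested gene of the pathway lists, with one row of points per list and a line at the median of each list, colored red where called higher, blue where called lower and grey where not called. The chaperone list has the highest median of the lists around the 10 genes (0.81), and the list of transcriptional inputs the lowest (-0.29).

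Of the 10 E2F and DP factors, which bind DNA as pairs downstream of the retinoblastoma protein, 3 rose and 2 fell, with a median of 0.15. The share called was 50%, against 35.8% of all genes tested. Tfdp2 fell with -1.33 ± 0.15 (adjusted p = 0.00127) and E2f2 rose with 0.74 ± 0.13 (adjusted p = 0.0053). E2f1 fell with -0.72 ± 0.17 (adjusted p = 0.0182), a call that ended without stimulated 1 (adjusted p = 0.0926). Tfdp1 was at 0.30 ± 0.14 (adjusted p = 0.135) and E2f8 at 0.18 ± 0.16 (adjusted p = 0.419), neither past the test. The next list held 9 tested genes of cyclins E and A, CDK2, CDK1 and the kinase that activates CDKs. Of these, 3 rose and none fell (33.3% called), with a median of 0.40. Those that rose were Ccne1 with 0.55 ± 0.13 (adjusted p = 0.0191), Ccnh with 0.61 ± 0.16 (adjusted p = 0.0281) and Ccna2 with 0.47 ± 0.15 (adjusted p = 0.0493). The Ccne1 call ended without control 2 (adjusted p = 0.0818) or stimulated 1 (adjusted p = 0.107). The Ccnh call ended without control 1, stimulated 1 or stimulated 2 (0.5, 0.6 and 0.64 on the log2 scale). It also ended with total count scaling (adjusted p = 0.0515). The Ccna2 call ended without any 1 of the 4 libraries (0.43, 0.51, 0.38 and 0.59 on the log2 scale). It also ended with upper quartile scaling (adjusted p = 0.0563), with total count scaling (adjusted p = 0.071) and without robust estimation (adjusted p = 0.0527). Cdk2 was at -0.21 ± 0.13 (adjusted p = 0.239), and Cdk1 at 0.35 ± 0.13 (adjusted p = 0.0835, and 0.0408 with DESeq2).

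Of 25 DNA replication genes that E2F factors control, 1 rose and 4 fell, with a median of -0.17. With 20% called, the list was under the 35.8% of all genes tested. Tyms, the gene of thymidylate synthase, rose with 0.98 ± 0.14 (adjusted p = 0.00246). Mcm6 fell with -0.77 ± 0.15 (adjusted p = 0.0091) and Mcm7 with -0.55 ± 0.14 (adjusted p = 0.0222), both parts of the replicative helicase. The Mcm7 call ended without control 1, stimulated 1 or stimulated 2 (adjusted p = 0.0688, 0.0633 and 0.134). The most abundant members that did not pass were Mcm5 at -0.38 ± 0.15 (adjusted p = 0.0874) and Mcm3 at 0.00 ± 0.15. Mcm5 passed with upper quartile scaling (adjusted p = 0.0472) and total count scaling (adjusted p = 0.0352). Of 20 mitosis genes 5 rose and 1 fell (30% called, also under that share), with a median of 0.37. Ube2c rose with 0.86 ± 0.16 (adjusted p = 0.00672), Top2a with 0.70 ± 0.17 (adjusted p = 0.0203) and Bub1b with 0.70 ± 0.18 (adjusted p = 0.0227). The Top2a call ended without control 1 or stimulated 1 (adjusted p = 0.111 and 0.0531), and that of Bub1b without control 2 or stimulated 1 (adjusted p = 0.0607 and 0.125). The proliferation marker Mki67 was at -0.14 ± 0.23 (adjusted p = 0.674) and the spindle motor gene Kif11 at 0.15 ± 0.15 (adjusted p = 0.486).

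HSP90 and CDC37 fold newly made CDK4 and CDK6. Of 4 chaperone genes 2 rose (50% called), Hsp90aa1 with 1.55 ± 0.16 (adjusted p = 0.000928) and Hsp90ab1 with 1.24 ± 0.16 (adjusted p = 0.00185). Cdc37 was at 0.39 ± 0.15 (adjusted p = 0.0804, and 0.0491 with DESeq2) and Cdc37l1 at 0.08 ± 0.15 (adjusted p = 0.7). Among 15 tested genes that act in the breakdown of D cyclins and p27KIP1, 2 rose and 2 fell, with a median of 0.10. The share called was 26.7%, under the 35.8% of all genes tested. Rbx1, a ring finger subunit of cullin ligases, rose with 0.81 ± 0.14 (adjusted p = 0.00547). Cks1b, the partner of SKP2 in p27KIP1 recognition, rose with 0.75 ± 0.18 (adjusted p = 0.0181), and this call ended without control 2 or stimulated 1 (adjusted p = 0.0627 and 0.0669). Cul4a fell with -0.71 ± 0.14 (adjusted p = 0.00855), and its call ended without stimulated 2 (adjusted p = 0.0561). Ddb1 was at 0.30 ± 0.19 (adjusted p = 0.278) and Fbxw8 at 0.47 ± 0.16 (adjusted p = 0.055), which passed without stimulated 2 (adjusted p = 0.0365).

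Polycomb proteins are known to keep the Cdkn2a locus silent. Here Cdkn2a was at 78.6 ± 2.25 CPM per kb (SD, n = 2) in controls. Of 16 tested Polycomb genes and other regulators of that locus, 2 rose and 5 fell, with a median of -0.27. Those that rose were Bmi1 with 0.64 ± 0.18 and Kdm6b with 1.25 ± 0.36, described further below. The share called was 43.8%, against 35.8% of all genes tested. Cbx7, a chromobox reader of the Polycomb mark, fell with -1.72 ± 0.23 (adjusted p = 0.00238). Kdm2b, which recruits Polycomb complexes to CpG islands, fell with -1.04 ± 0.14 (adjusted p = 0.00196), and Ezh1, a methyltransferase of the complex, with -0.78 ± 0.13 (adjusted p = 0.00534). Suz12 was at 0.34 ± 0.37 (adjusted p = 0.534) and Eed at 0.34 ± 0.13 (adjusted p = 0.0878). Of 5 genes around ARF and p53, Npm1, whose product binds ARF in the nucleolus, rose from 193 ± 12 CPM (SD, n = 2) to 669 ± 24.4 CPM, with 1.79 ± 0.15 on the log2 scale (adjusted p = 0.000475). Mdm2 rose with 0.59 ± 0.14 (adjusted p = 0.0188), and its call ended without control 1 or stimulated 1 (adjusted p = 0.0929 and 0.0791). Trp53 was at 0.19 ± 0.28, Mdm4 at -0.01 ± 0.14 and Dmtf1 at -0.21 ± 0.13, none past the test.

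A further list held 15 transcription factors, coactivators and chromatin proteins known to act on D cyclins or inhibitor genes. Of these, 3 rose and 3 fell (40% called, against 35.8% of all genes tested), with a median of -0.29. Stat5a rose with 3.24 ± 0.20 (adjusted p = 0.000239) and Stat3 with 1.76 ± 0.17 (adjusted p = 0.000748). Lef1, a Wnt-pathway factor, fell with -1.45 ± 0.17 (adjusted p = 0.00149). Ctnnb1 was at -0.49 ± 0.16 (adjusted p = 0.0503, and 0.0207 with DESeq2) and Nfkb1 at -0.24 ± 0.14 (adjusted p = 0.236). Among 15 tested relatives of D cyclins and other CDKs, 1 rose and 3 fell (26.7% called), with a median of 0.00. Ccng2, the gene of cyclin G2, fell with -1.51 ± 0.14 (adjusted p = 0.000715). Cdk8, a kinase of the Mediator complex, rose with 0.60 ± 0.14 (adjusted p = 0.0157), and Cdk17 fell with -0.61 ± 0.17 (adjusted p = 0.0346). The Cdk8 call ended without control 2 or stimulated 1 (adjusted p = 0.0525 and 0.102), as did that of Cdk17 (adjusted p = 0.154 and 0.148). Ccnt1 was at -0.05 ± 0.19 and Ccng1 at 0.19 ± 0.26, and neither passed the test. Without control 2, Ccng1 was at 0.63 and passed (adjusted p = 0.0376).

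The other list genes that passed the test fall outside the naming rule and were chosen after their values were seen. Myc, whose product binds E-boxes, rose from 16.3 ± 5.21 CPM (SD, n = 2) to 48.9 ± 1.79 CPM, with 1.58 ± 0.23 on the log2 scale (adjusted p = 0.00311). Foxo3, a factor known to raise Cdkn1b, fell with -0.75 ± 0.13 (adjusted p = 0.00534). Both calls held without any 1 library. Foxo4, of the same family, fell with -0.46 ± 0.14 (adjusted p = 0.0385), and its call ended without any 1 of the 4 libraries (adjusted p = 0.111, 0.092, 0.076 and 0.242). Phc2 fell with -0.64 ± 0.13 (adjusted p = 0.00961) and lost its call without stimulated 1 (adjusted p = 0.0526).

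The remaining called genes lost their calls without several of the single libraries, given in the order used above. E2f4, Kdm6b and Bub1 also lost them with upper quartile scaling and with total count scaling. E2f5 and Bmi1 also lost them with total count scaling, and Ccni with limma-voom and without robust estimation. E2f4 rose by 0.48 (0.197, 0.179 and 0.0813 without control 2, stimulated 1 and stimulated 2, as adjusted p), and E2f5 by 0.83 (0.0905 and 0.119 without control 1 and stimulated 2). Bmi1, a Polycomb gene whose product represses Cdkn2a, rose by 0.64 (0.138, 0.0884 and 0.054 without control 1, stimulated 1 and stimulated 2). Kdm6b, which removes the Polycomb mark, rose by 1.25 (0.11, 0.0661 and 0.0609 without control 2, stimulated 1 and stimulated 2). Cbx2 fell by 0.50 and lost its call without any 1 library (0.0576, 0.129, 0.211 and 0.0602). Fbxo31, a ligase subunit for cyclin D1, fell by 0.63 (0.108, 0.125 and 0.0503 without control 2, stimulated 1 and stimulated 2). The helicase gene Mcm2 fell by 0.51 (0.188, 0.189 and 0.0972 without control 2, stimulated 1 and stimulated 2), and Mcm4 by 0.54 (0.115 and 0.213 without control 1 and stimulated 2). Ccnb1, the gene of cyclin B1, rose by 0.51 (0.131, 0.121 and 0.0753 without control 1, stimulated 1 and stimulated 2), and Bub1 by 0.51 (0.199, 0.0941 and 0.105 without the same libraries). Cenpf fell by 0.50 and lost its call without any 1 library (0.0963, 0.0571, 0.17 and 0.0767). Ccni fell by 0.58 (0.204, 0.174 and 0.0692 without control 2, stimulated 1 and stimulated 2).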

How the data were processed

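RNA was depleted of ribosomal RNA, per the labels' protocols. The submitters' processing notes name STAR, Subread and featureCounts. The versions, genome build and use of strand in counting were not given in the sources used here. A raw whole-number count was deposited for each gene, per the file headers. The CPM deposited by the authors is the count scaled to the library's sum, and the RPKM deposited by the authors is that CPM per kb of listed length. Neither was used further. Symbols came from GENCODE M21 (40340 of 41388 identifiers). Coordinates are those of the count tables.

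Groups were compared with edgeR 4.0.16 (quasi-likelihood, filterByExpr, TMM, robust, treatment only) in R 4.3.3, with Benjamini-Hochberg adjustment over 13838 genes and a threshold of 0.05. The printed CPM use TMM library sizes, and the common biological coefficient of variation was 18.4%. The SE is the log2 fold change over the root of F. DESeq2 1.42.0 and limma 3.58.1 served as alternatives. On simulated data with 13523 genes, 40.4% of 99 genes changed by 1 on the log2 scale were recovered and 89.9% of 99 changed by 2. Of 13325 unchanged genes 22 were called. The simulation changed only 200 genes and drew each library independently. Its rates therefore do not give the sensitivity of the main fit, in which far more genes were called.

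All 10 genes are named. Of each other list, the 3 with the smallest adjusted p past the threshold and the 2 most abundant not past it are named, short lists in full, with genes that overlap one of the 10 or start within 10 kb. The members and lists were chosen with earlier results of these data known. Library pairs of a group differed beyond counting noise (chi-square per degree of freedom 70.6 in controls, 40.6 in stimulated). A few marker genes are not reported here.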

Additional observations from a re-analysis of the deposited data

How the results depend on the processing

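Direction held for all 10 genes under every alternative run (Ccnd1 did not enter the filter at 1 CPM), as did the calls of Ccnd2, Cdk6, Cdkn1b, Cdkn2a and Cdkn2d. The number of the 10 genes called lower was 2, against 1 with limma-voom and without robust estimation, 4 with a replicate block, and 1 to 2 without any 1 library. The titles state no pairing, and the replicate 1 minus replicate 2 deviations of the groups correlated at 0.58 across genes. With the replicate block, 7986 genes were called over all (main 4950) and 94 in the pathway lists (main 47), and Ccnd1, Ccnd3, Cdk4 and Rb1 passed with adjusted p of 0.036, 0.00533, 0.00413 and 0.00197. Without any 1 library, 3258 to 3958 genes were called, and 26 to 40 in the lists, the lowest in both without stimulated 1. Without division by length, Ccnd1 was 1.06% of the D cyclins in controls and 0.329% in stimulated cells, Ccnd2 1.19% and 7.96%, and Ccnd3 97.8% and 91.7%. Annotated exon lengths include bases that were not counted. With them, Ccnd2 was 1.1% in controls and 7.45% in stimulated cells, and Ccnd3 91.9% in stimulated cells.

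Among the named genes, signs turned only for genes not called in the main fit. Their log2 fold changes there lay between -0.14 (Mki67) and 0.34 (Suz12, SE 0.37). Without any 1 library, Cdkn1a ranged from -0.22 to 1.17, Cdc37l1 from -0.03 to 0.21, Suz12 from -0.06 to 0.81, Trp53 from -0.15 to 0.64, Mdm4 from -0.10 to 0.09, Mcm3 from -0.06 to 0.08, Mki67 from -0.46 to 0.15, Ccnt1 from -0.23 to 0.15 and Ccng1 from -0.16 to 0.63. Cdc37l1 was 0.00 with total count scaling. Mdm4 was 0.01 with DESeq2 size factors, TMM without technical genes and DESeq2, where Mcm3 was 0.02, 0.01 and 0.02, and 0.00 without a filter. Total count scaling moved the median of all genes from -0.02 to -0.11 and the share of calls that were higher from 48.8% to 40.9%. Of 308 counts of list calls under alternatives, 257 stayed within 1.5 times. Of 53 named genes that were called, 28 lost the call without at least 1 library. The causes were not tested. Genes with few counts, as Ccnd1, limit what 2 libraries a group can resolve.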

Other observations

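Other genes near the 10 gave these values. Gm17233 and Mir687, which lie within or across Rb1 on its strand, held 5 to 13 and 2 to 5 counts per library, and Gm12606, near Cdkn2a, held 3 to 7; these 3 were not tested. Antisense to Ccnd2, 9330179D12Rik held 1 count in control 2 and none in the other libraries, and ENSMUSG00000091644, which overlaps 60 exonic bases of Cdk6, held none in any library. March9, near Cdk4, fell by 1.10 on the log2 scale (SE 0.17, adjusted p = 0.00327). LTO1, which overlaps Ccnd1, was at -0.28 ± 0.21 (adjusted p = 0.343), Taf8, near Ccnd3, at -0.17 ± 0.14 (adjusted p = 0.407), and 9630013D21Rik, near Cdkn2c, at -0.51 ± 0.57 (adjusted p = 0.527).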
